A study of Homo sapiens with 18 samples.

Results

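CTCF regions that lie inside genes and carry no H3K27ac peak were examined in HEK293T, an immortalised human line that derives from embryonic kidney. ChIP-seq was available for CTCF and for H3K27ac in untreated cells (CTRL) and in cells given 1 mM valproic acid for 1 day (VPA), with 3 libraries per antibody and treatment. Valproic acid is an inhibitor of histone deacetylases, and no other agent or genetic change distinguished the groups. The peaks of the 6 CTCF lists were joined where they overlapped by 1 bp or more, which gave 69985 regions, and the summit of a region was that of its peak with the highest −log10 q-value. Of these regions, 35867 had the summit in the body of an autosomal protein-coding gene (19111 genes). Of those, 24273 lay over 1 kb and up to 100 kb from the nearest protein-coding transcription start site (TSS). An H3K27ac peak of at least 1 of the 6 H3K27ac lists held the summit of 6017 of the 24273. The remaining 18256 regions, 26.1% of all CTCF regions, are called intragenic unacetylated regions here. Because the peak lists themselves chose them, their presence in a list, the absence of acetylation at the summit and their place in a gene are descriptions and were not tested.

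CTCF is a zinc finger protein that binds a long, asymmetric DNA motif. Together with the cohesin ring complex it anchors chromatin loops, and loops form preferentially between motifs that point towards each other. Acetylation of lysine 27 of histone H3 marks active promoters and enhancers. The CTCF regions examined here have their summit outside such marked stretches, although some lie close to one. CTCF bound within a gene body has also been linked to RNA polymerase pausing and to the inclusion of exons. Methylation of the cytosine in a CpG of the motif is known to weaken CTCF binding.

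A matrix of the motif, 20 bp wide, was learned from CTCF regions outside the set, and its consensus read gcgGCCACcAGGGGGCGCcg, with capitals for the bases that prevailed in most of its instances. A region was counted as holding the motif when the best match within 100 bp of the summit, on either strand, reached 11.3 bits, a score found in 2.28% of windows of the same length (201 bp) placed 2 kb from the summits of intragenic unacetylated regions. The motif was held by 10283 intragenic unacetylated regions, 56.3% (Wilson 95% interval 55.6% to 57.0%), and by 55.1% of all CTCF regions. The motif lay a median of 14.5 bp from the summit. To show what the strongest regions look like, the motif and 20 bp on each side are given for the highest-ranked regions with a peak in all 6 lists, as hg38 sequence read on the strand of the motif with the motif in capitals. GBX1 (chr7:151172675-151172734, minus strand), TMPRSS6 (chr22:37077946-37078005, plus strand), WNT9A (chr1:227946753-227946812, minus strand), MRPS22 (chr3:139329487-139329546, minus strand) and HGFAC (chr4:3443617-3443676, minus strand) all held it in an intron.
GBX1: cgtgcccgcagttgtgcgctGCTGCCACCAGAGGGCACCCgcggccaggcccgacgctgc
TMPRSS6: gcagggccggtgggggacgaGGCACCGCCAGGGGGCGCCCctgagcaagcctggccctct
WNT9A: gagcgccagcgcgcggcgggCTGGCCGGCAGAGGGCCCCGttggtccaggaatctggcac
MRPS22: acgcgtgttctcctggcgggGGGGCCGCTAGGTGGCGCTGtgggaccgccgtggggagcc
HGFAC: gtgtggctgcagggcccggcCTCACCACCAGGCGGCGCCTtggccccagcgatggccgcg

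For contrast, the same stretch is given for 4 regions that had a peak in all 3 lists of one treatment and in no list of the other, those with an intronic motif among the 4 highest ranked of each kind. DAZL (chr3:16601410-16601469, plus strand) and OPRL1 (chr20:64082412-64082471, minus strand) were found only in VPA, and SSBP3 (chr1:54323360-54323419, plus strand) and PAX2 (chr10:100813181-100813240, minus strand) only in CTRL, all in introns.
DAZL: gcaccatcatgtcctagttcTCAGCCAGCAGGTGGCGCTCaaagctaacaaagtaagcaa
OPRL1: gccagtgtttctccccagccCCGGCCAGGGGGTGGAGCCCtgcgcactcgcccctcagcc
SSBP3: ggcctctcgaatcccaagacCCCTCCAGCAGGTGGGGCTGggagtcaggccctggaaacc
PAX2: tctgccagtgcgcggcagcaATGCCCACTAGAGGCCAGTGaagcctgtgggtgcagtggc

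Several features of the libraries touch every comparison. Replicate 1 gave the shortest CTCF list in both treatments, and VPA replicate 1 stood apart from the other 5 lists in the motif share and in the upper quartile of fold enrichment at intragenic unacetylated regions, 15.7 against 22.2 to 37.1. Fold enrichment is the authors' ratio of the peak summit over its local background. The read depth of the libraries is unknown, and the labels do not say whether replicates were separate cultures, so p-values measure the spread between these libraries alone. Where VPA replicate 1 decides a value, the value without it is given.

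Intragenic unacetylated regions with a peak numbered 10164, 14996 and 14424 in CTRL replicates 1, 2 and 3. In VPA they numbered 8583, 13477 and 13965. The treatments overlapped, and the low values in both were those of replicate 1. The means (± SD, 3 lists each) were 13194.7 ± 2640 for CTRL and 12008.3 ± 2976 for VPA, a difference of −1186.33 that was smaller than the spread between replicates (two-sided exact permutation test, p = 0.5, adjusted over 8 tests 0.571). With 3 libraries against 3 this test cannot give a p below 0.1. The VPA list held fewer of these regions at each replicate number, with differences of −1581, −1519 and −459 for replicates 1, 2 and 3, but without VPA replicate 1 the difference turned to 525.5 more in VPA, and with lists cut to equal length it was −194.333. These regions took 25.8%, 25.6% and 25.7% of the CTRL lists and 23.8%, 25.3% and 25.4% of the VPA lists. The shares did not overlap between treatments, with a difference of −0.867 percentage points (exact permutation test, p = 0.1, the smallest possible, adjusted p = 0.2), and replicates 2 and 3 alone gave −0.295. The exact permutation p was 0.2 when the TSS of every protein-coding transcript was counted and when the whole region had to be free of H3K27ac peaks, and 0.5 with lists cut to equal length, where the difference was −0.545.

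With full lists, the median fold of the peaks called at intragenic unacetylated regions differed little between treatments. A region without a call in a list adds no value to the median of that list. Median fold enrichment was 8.81, 13.4 and 13.5 in CTRL replicates 1, 2 and 3 and 9.03, 12.6 and 14.1 in VPA. The replicate 1 lists were low in both treatments, and the group means were 11.9 ± 2.67 and 11.9 ± 2.61 (SD, n = 3 each, exact permutation test, p = 1). The difference was 0.00802. It was −1.53 without CTRL replicate 1, −0.32 without VPA replicate 2, −1.09 without VPA replicate 3 and 1.45 without VPA replicate 1. All of these had an exact permutation p of at least 0.6. With lists cut to equal length the difference was −2.23 (exact permutation test, p = 0.5). The motif was held by 58.9%, 59.4% and 59.5% of the peaks at these regions in CTRL and by 73.0%, 59.1% and 62.4% in VPA. The value of 73.0% came from VPA replicate 1 and stood above all others. The means were 59.2% ± 0.335 and 64.8% ± 7.26 (SD, n = 3 each, exact permutation test, p = 0.3, adjusted p = 0.48), and in replicates 2 and 3 alone the VPA lists were 1.29 percentage points higher. Without VPA replicate 1 the difference was 1.49 percentage points.

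Region by region, no intragenic unacetylated region with a peak in all 6 lists passed the test for a change of fold enrichment. Those missing from any list were not tested. Of the 27794 CTCF regions with a peak in all 6 lists, limma on log2 fold enrichment, centred per library, called 0% higher and 0% lower in VPA at an adjusted p of 0.05, and of the 6514 intragenic unacetylated regions among them it called 0 in either direction. An unadjusted p under 0.05 was reached by 35 of these 6514 regions (0.537%) and by 129 of all (0.464%). Both shares lay far below the fraction of 0.05 that such p-values give when nothing changes. The 0 calls therefore do not show that the regions were unchanged. The median log2 difference of the intragenic unacetylated regions was 0.03 (quartiles −0.34 and 0.32), against 0.10 over all regions tested, and the median standard error of a region was 0.63. Without VPA replicate 1 these medians were −0.21 and −0.18, without centring −0.08 and −0.02, and with recovered pileup over the genome-wide background 0.23 and 0.26, so the sign of the median is not fixed. With replicates 2 and 3 alone, a choice made after the data were seen, limma again called 0 regions. An unadjusted p under 0.05 was then reached by 290 of the 6514 regions and by 1319 of all 27794.

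**Figure D1:**
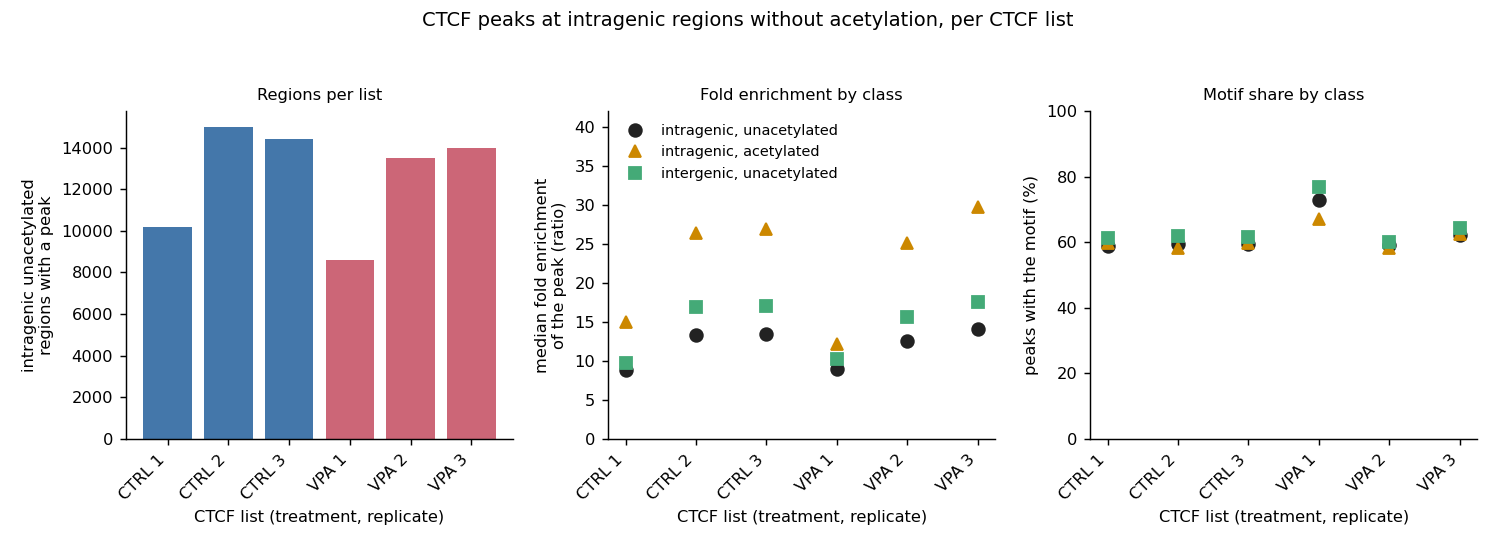
Intragenic unacetylated regions with a CTCF peak in each of the 6 lists (left, number of regions, bars from 0), median fold enrichment (middle, ratio) and share of peaks with the motif (right, percent) for these regions, intragenic acetylated regions and intergenic unacetylated regions. Each point is 1 list with no error bar. The replicate 1 lists held the fewest regions (10164 and 8583), acetylated regions had the highest fold in every list, and VPA replicate 1 had the highest motif share in all 3 classes.

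Intragenic unacetylated regions had lower median folds than the classes most like them. The comparison classes shared the limits of 1 and 100 kb from the nearest TSS. They were the 6017 intragenic regions in an H3K27ac peak, and 15261 regions in no H3K27ac peak and outside gene bodies. Distances were not matched within the limits, and acetylated regions lay nearer to the TSS. Median fold enrichment over the 6 lists averaged 11.9 ± 2.36 at intragenic unacetylated regions and 22.5 ± 7.18 at intragenic acetylated regions (SD, n = 6 lists). The intragenic unacetylated regions were lower in 6 of 6 lists, with differences of −15.6 to −3.10 (exact sign-flip permutation test over the lists, p = 0.03125, the smallest possible, adjusted p = 0.0833). Intergenic unacetylated regions averaged 14.5 ± 3.57, and intragenic unacetylated regions were again lower in 6 of 6 lists, with differences of −3.59 to −0.957 (exact sign-flip permutation test, p = 0.03125, adjusted p = 0.0833). Neither difference passed 0.05 after adjustment for 8 tests. In rank within a list, where 0% is the weakest peak and 100% the strongest, the median intragenic unacetylated region lay between 45.6% and 46.8% in the 6 lists, and the median intragenic acetylated region between 64.2% and 66.9%. The median intergenic unacetylated region lay between 45.2% and 52.2%. It was above the intragenic one in 5 lists and below it in CTRL replicate 1 (45.2% against 45.8%).

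The motif share separated these classes less than the fold did. The share of peaks with the motif averaged 62.0% ± 5.52 at intragenic unacetylated regions, 61.0% ± 3.41 at intragenic acetylated regions and 64.4% ± 6.28 at intergenic unacetylated regions (SD, n = 6 lists). Against intragenic acetylated regions the difference of 1.01 percentage points was positive in 3 of 6 lists (exact sign-flip permutation test, p = 0.469, adjusted p = 0.571), with 5.76 in VPA replicate 1 as the highest, and without that library it was 0.101 (exact sign-flip permutation test, p = 0.875). It turned to −1.79 when the TSS of every protein-coding transcript was counted, to −1.26 when the whole region had to be free of H3K27ac peaks and to −2.21 with a stricter motif score. Against intergenic unacetylated regions the share was lower in 6 of 6 lists, with differences of −3.88 to −0.904 percentage points (mean −2.33, exact sign-flip permutation test, p = 0.03125, adjusted p = 0.0833).

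How regularly an intragenic unacetylated region was found went with the motif and the fold. A peak in all 6 lists was present at 6514 of these regions, 35.7%, compared with 39.7% of all CTCF regions, 59.3% of intragenic acetylated and 37.8% of intergenic unacetylated regions. A peak in a single list was present at 2780 (15.2%). The motif was held by 35.6% of the regions found in 1 list, by 48.6% of those in 4 lists and by 76.5% of those in all 6. The mean fold of a region is, here and below, the geometric mean over the lists that hold a peak there. Median mean fold enrichment was 4.32 in regions of 1 list, 8.09 in 4 lists and 25.4 in all 6. Median width was 353 bp, 632 bp and 981 bp. A region spans all of its joined peaks, so width can grow with the number of lists by construction. The motif matrix was learned from other regions in all 6 lists, and the part of that choice in the motif shares was not tested. The most frequent pattern short of all 6 lists was the absence of both replicate 1 lists, at 2312 regions (12.7%), followed by the absence of VPA replicate 1 alone at 1810 (9.91%) and of CTRL replicate 1 alone at 736 (4.03%).

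**Figure D2:**
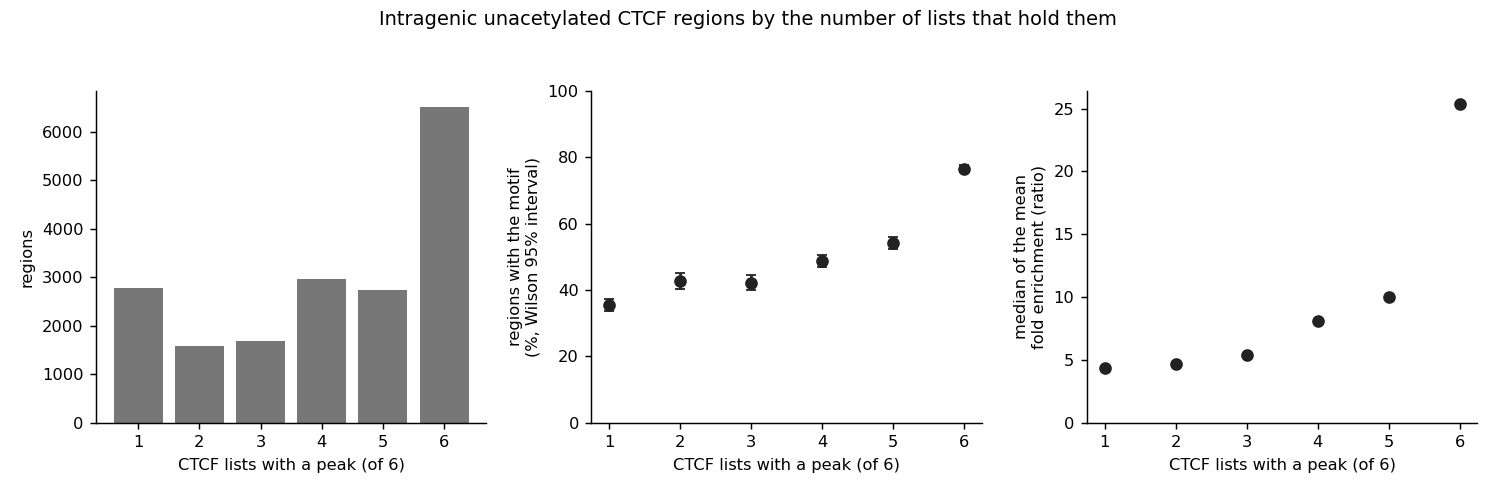
Intragenic unacetylated regions by the number of the 6 CTCF lists that hold a peak there (x axis): the number of regions (left, bars from 0), the share with the motif (middle, percent, bars are Wilson 95% intervals) and the median of the mean fold enrichment (right, ratio). The motif share was 35.6% in 1 list and 76.5% in 6, and the fold was 4.32 and 25.4.

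The score of the motif went with the fold in every list. Intragenic unacetylated regions without the motif had a median mean fold of 6.08, and 19.2% of them had a peak in all 6 lists. When the motif-holding regions were split by score into 4 bins of like size, the bin with the highest scores, from 17.1 bits, had a median mean fold of 32.4 and a peak in all 6 lists at 74.9% of its regions. In that bin the median fold was 21.6, 52.0 and 49.9 in CTRL replicates 1, 2 and 3 and 14.4, 52.6 and 49.3 in VPA. The replicate 1 lists had the lowest medians in this bin, while at regions without a motif the 6 lists ranged from 6.41 to 8.50. Fold values of strong and weak regions were thus closer together in replicate 1 of both treatments.

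**Figure D3:**
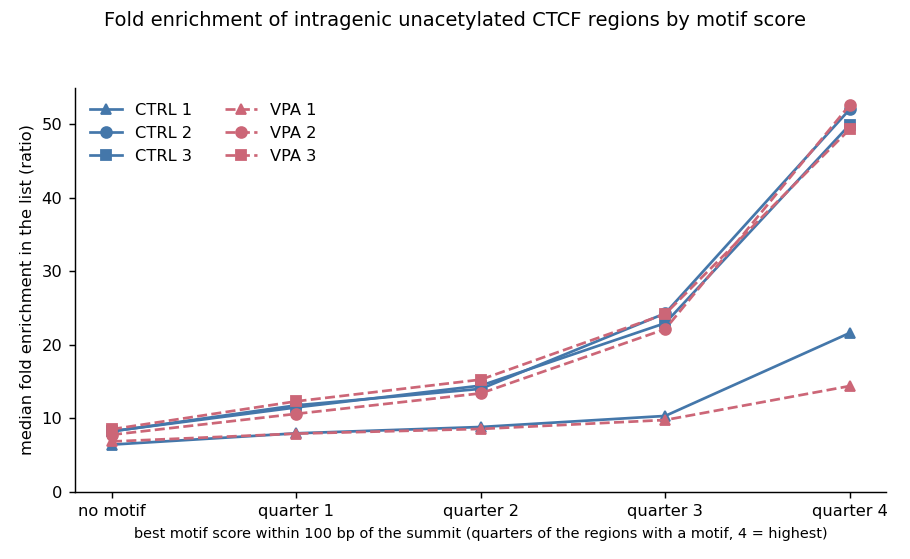
Median fold enrichment (ratio, y axis) of intragenic unacetylated regions without the motif and in 4 bins of motif score (x axis), with a line for each of the 6 lists. In the top bin, replicates 2 and 3 lay between 49.3 and 52.6, CTRL replicate 1 at 21.6 and VPA replicate 1 at 14.4.

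Intragenic unacetylated regions differed in base composition from the acetylated ones. Their median GC content within the 201 bp around the summit was 51.7%, against 57.2% at intragenic acetylated regions and 50.7% at intergenic unacetylated regions. They held 3.99 ± 3.83 CpG per 201 bp (SD over regions), against 9.65 ± 8.75 and 3.78 ± 3.63 in the other classes. The same held within the motif. Counted from 1 at its 5′ end, a CpG at positions 6 and 7 was present in 5.95% of motifs of intragenic unacetylated regions (Wilson 95% interval 5.51% to 6.43%), 18.1% of motifs of acetylated regions (16.8% to 19.5%) and 6.08% of intergenic ones (5.60% to 6.59%). A CpG at positions 16 and 17 was present in 24.9% (24.1% to 25.7%), 40.04% (38.4% to 41.7%) and 24.99% (24.1% to 25.9%), respectively. These intervals cover counting error over regions and not the spread between libraries. Among intragenic unacetylated regions with the motif, median mean fold was 21.8 with the CpG at positions 16 and 17 and 11.8 without it, and 18.3 and 13.5 with and without the one at positions 6 and 7. Of the sequences printed above, TMPRSS6 and MRPS22 hold both, WNT9A holds the one at position 6, HGFAC and DAZL the one at position 16, and GBX1, OPRL1, SSBP3 and PAX2 neither. Acetylated regions also lay closer to gene starts, where CpG is frequent, and the part of position in these differences was not tested. C at position 16 and G at position 17 are the prevailing bases of the matrix (shares of 0.809 and 0.594). A CpG there thus adds to the motif score, which also went with the fold, and the part of the score was not tested.

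Within genes, the intragenic unacetylated regions were mainly intronic. The summit was in an intron in 15779 (86.4%), in a coding exon in 1407 (7.71%) and in an untranslated exon stretch in 1070 (5.86%). The motif was held by 55.4% of the intronic, 62.4% of the coding and 62.6% of the untranslated ones, with median mean folds of 8.51, 7.91 and 9.23. The median distance to the nearest TSS was 26.8 kb (quartiles 11.4 and 51.5 kb), and that TSS was the one of the host gene in 65.2%. The summit lay at a median of 0.498 of the way through the gene, against 0.344 for acetylated regions. Gene bodies held 22.5 of these regions per Mb of eligible sequence, that is, sequence 1 to 100 kb from the nearest TSS, and stretches between genes held 25.6 unacetylated CTCF regions per Mb.

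Unacetylated regions were spread rather evenly with distance, while acetylation was not. Density in gene bodies was 20.7 per Mb at 1 to 2 kb from the TSS, 24.9 at 2 to 5 kb, 24.7 at 5 to 10 kb and 20.6 at 50 to 100 kb. Between genes it was higher in each of the 6 distance bins, from 22.7 to 28.9 per Mb. The share of intragenic CTCF regions in an H3K27ac peak was 69.7% at 1 to 2 kb and 13.9% at 50 to 100 kb, so that the bin nearest to the TSS held 422 of the intragenic unacetylated regions. Their motif share varied little across the bins, from 53.8% to 57.9%, and their median mean fold from 7.53 to 8.76.

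**Figure D4:**
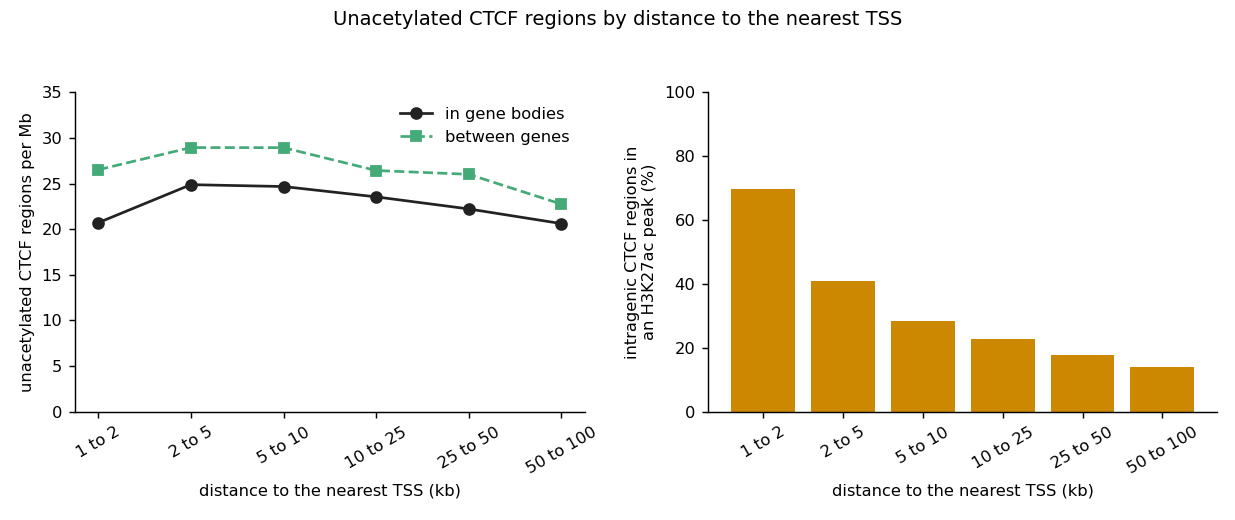
Unacetylated CTCF regions per Mb in gene bodies and between genes (left, bases 1 to 100 kb from a TSS) and the share of intragenic CTCF regions in an H3K27ac peak (right, percent, bars from 0), by distance to the nearest TSS in kb. The gene body line stays between 20.6 and 24.9 per Mb, below the line for sequence between genes, and the acetylated share falls from 69.7% to 13.9%.

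The motif pointed along the gene and against it nearly equally often. It lay on the strand of the host gene in 5036 intragenic unacetylated regions, 49.0% (Wilson 95% interval 48.0% to 49.9%), with a median mean fold of 13.1 against 14.1 on the other strand. Among 3971 pairs of neighbouring motif-holding regions of the same gene, 49.7% pointed the same way, 24.7% towards each other and 25.6% away from each other, with median spacings of 16.7, 18.9 and 14.6 kb.

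Across the 22 autosomes, density in gene bodies ranged from 16.2 per Mb on chromosome 13 to 30.8 per Mb on chromosome 22. Chromosomes 17 and 19 followed at 29.7 and 27.3 per Mb, and chromosome 4 was next to the lowest at 17.7 per Mb. Across chromosomes, density in gene bodies went with that of unacetylated regions between genes (Pearson's r = 0.904, Spearman's rho = 0.931, n = 22 chromosomes), a description over chromosomes that share the same 6 libraries and differ in base composition.

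Although no summit of these regions was in an H3K27ac peak, acetylation lay nearer in the VPA lists. The median distance from the summit to the nearest H3K27ac peak was 26.97, 22.6 and 22.8 kb in CTRL replicates 1, 2 and 3 and 19.9, 16.9 and 17.5 kb in VPA. An H3K27ac peak lay within 5 kb of 12.4%, 15.6% and 15.2% of the regions in CTRL and of 18.8%, 22.6% and 21.8% in VPA. The treatments did not overlap in either measure, and since the rule used these H3K27ac lists neither was tested. Both measures also move with the number and width of the peaks in an H3K27ac list, and that part was not tested. Intergenic unacetylated regions behaved alike, with 10.7% to 13.7% within 5 kb in CTRL and 17.2% to 19.5% in VPA. An H3K27ac peak touched the edge of 1168 intragenic unacetylated regions (6.40%) away from the summit, in 0.449% to 0.981% of the regions per CTRL list and 2.43% to 3.51% per VPA list. The regions closest to acetylation were strong. The 842 with an H3K27ac peak within 200 bp of the summit had a median mean fold of 21.8, a motif in 70.1% and a peak in all 6 lists in 65.6%, and the 1377 regions just outside the rule, with the summit in a peak of exactly 1 of the 6 H3K27ac lists, had 21.0, 62.5% and 62.3%.

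At the distance limits, regions on either side were compared by value. The 214 regions within 200 bp inside the limit of 1 kb had a median mean fold of 8.01 and a motif in 55.6%, and 186 unacetylated regions just nearer to the TSS had 8.24 and 62.9%. The closest on each side were in KCNS2 (1002 bp, mean fold 18.2) and EHHADH (993 bp, 7.05). The 350 regions just inside 100 kb had 8.60 and 60.3%, and 328 just beyond it 10.6 and 62.5%, with TSHZ3 (99986 bp, 6.53) and PRKAG2 (100002 bp, 14.9) as the closest.

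Regions found in all lists of one treatment and none of the other were few. Of the intragenic unacetylated regions, 47 (0.257%) were found only in VPA, that is, in all 3 VPA lists and no CTRL list, compared with 0.186% of all CTCF regions. The reverse pattern, only in CTRL, was found at 80 (0.438%), compared with 0.326% of all. Their median mean rank within the lists was 18.2% and 17.2%, against 63.3% for the regions in all 6 lists, and 51.1% and 46.3% held the motif. Low values were shared by all intragenic unacetylated regions with a peak in 3 lists, whichever these were, with a median mean fold of 5.42 and a motif in 42.2%, against folds of 4.74 and 4.80 in the sets only in VPA and only in CTRL. Leaving out a CTCF list loosens the requirement. Regions only in VPA numbered 79, 93 and 72 without CTRL replicates 1, 2 and 3 and 180, 144 and 87 without VPA replicates 1, 2 and 3. Regions only in CTRL numbered 582, 150 and 162 without CTRL replicates 1, 2 and 3, and 83, 203 and 141 without VPA replicates 1, 2 and 3. With all lists cut to equal length they numbered 14 and 23. The counts over all CTCF regions moved in the same direction each time. Without CTRL replicate 1, the pattern of CTRL alone held for 1850 of 67979 CTCF regions, against 582 of 17642 intragenic unacetylated ones. Without VPA replicate 1, the reverse pattern held for 625 of 68917, against 180 of 17909. Equal lengths left 42 VPA and 70 CTRL cases among 51314 CTCF regions, against 14 and 23 among 13188.

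The highest-ranked regions of these 2 sets had moderate folds. Among those only in VPA, the region in DAZL, which encodes a germ cell RNA-binding protein, had folds of 9.44, 8.55 and 19.2 in VPA replicates 1, 2 and 3. The region in OPRL1, the nociceptin receptor, had 4.61, 6.21 and 6.21. Those in LINGO1, a neuronal membrane protein, and RBFOX3, the splicing factor known as NeuN, held no motif, with folds of 7.89, 4.52 and 4.66 and of 5.24, 4.31 and 5.47. Among those only in CTRL, the region in SSBP3, a transcriptional cofactor, had 4.78, 6.40 and 6.77 in CTRL replicates 1, 2 and 3. The region in AKAP13, an anchoring protein for protein kinase A, had no motif and folds of 11.6, 7.78 and 8.62. The one in PAX2, a transcription factor of kidney development, had 6.78, 6.78 and 5.995, and the one in an untranslated stretch of KIAA1614 had 4.93, 6.64 and 5.73. The sequence printed for PAX2 scored 13.7 bits and that for SSBP3 15.04, against 21.7 for DAZL and 22.3 for GBX1.

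The strongest regions were present in all 6 lists with folds far above the median. In GBX1, a homeobox gene, the region lay 2.00 kb from the TSS with folds of 132, 240 and 166 in CTRL replicates 1, 2 and 3 and 182, 219 and 175 in VPA, at a mean rank of 99.99%. In TMPRSS6, which encodes a protease that restrains hepcidin, the folds were 99.7, 117 and 111 in CTRL and 126, 144 and 118 in VPA. The treatments overlapped in GBX1, and in TMPRSS6 the lowest VPA value lay just above the highest CTRL value. The region in MRPS22, a mitochondrial ribosomal protein gene, had 141, 114 and 101 in CTRL and 138, 160 and 135 in VPA. In HGFAC, the protease that activates hepatocyte growth factor, folds ranged from 58.7 to 135 in CTRL and from 103 to 222 in VPA. In the Wnt ligand gene WNT9A they ranged from 34.7 to 76.8 and from 58.3 to 97.9, and in an untranslated stretch of the kinase gene ITPKB from 55.5 to 86.7 and from 80.2 to 113. In these last 4 genes the ranges of the treatments overlapped.

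At least 1 intragenic unacetylated region was assigned to 8810 of 18642 genes with eligible sequence (47.3%). Here and in the gene lists below, a region in the body of 2 or more genes was counted only for the gene with the nearest TSS. This concerned 1261 regions (6.91%), so a gene without a counted region can still hold a region counted for another gene. A single region was found in 4324 genes, 5 or more in 672 and 10 or more in 30. The 672 genes held 22.3% of all these regions. CDH23, a cadherin of the tip links of hair cells, had the most, with 15, of which 9 held the motif and 5 were in all 6 lists. C4orf50 and MGLL, the lipase that degrades the endocannabinoid 2-arachidonoylglycerol, had 14 each. VWF, the von Willebrand factor, TBCD, a tubulin folding cofactor, RALGPS1, an activator of Ral GTPases, and AGBL4, a carboxypeptidase, had 12 each. Per 100 kb of eligible sequence, VWF held 6.86, TBCD 6.49, CDH23 5.49 and AGBL4 3.57. The value was 2.25 over all gene bodies, and the median over genes with such a region was 3.27. These genes were picked for their counts, so densities above those values follow in part from the choice. CDH23, C4orf50, VWF, RALGPS1 and AGBL4 held no acetylated CTCF region within the same distance limits, while MGLL held 1 and TBCD 2.

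The regions of CDH23 show the range within a gene. The 5 found in all 6 lists lay 33.2, 89.7, 300.01, 311 and 415 kb from the gene start, and 4 of them held the motif. At 415 kb the folds were 37.7, 72.2 and 105 in CTRL replicates 1, 2 and 3 and 66.2, 105 and 79.0 in VPA. At 300.01 kb they were 182, 88.7 and 71.3 in CTRL and 18.8, 131 and 123 in VPA, with the highest and the lowest value both in replicate 1. At 33.2 kb, the one without the motif, they were 31.0, 14.2 and 9.78 and 12.4, 11.1 and 10.6. The treatments overlapped in all 3. The region at 251 kb, in an untranslated stretch, was missing from VPA replicate 1 and had a fold of 5.71 in CTRL replicate 1, against 35.3 to 39.6 in the other 4 lists. The region at 307 kb was found in VPA replicate 2 alone, with a fold of 4.37.

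**Figure D5:**
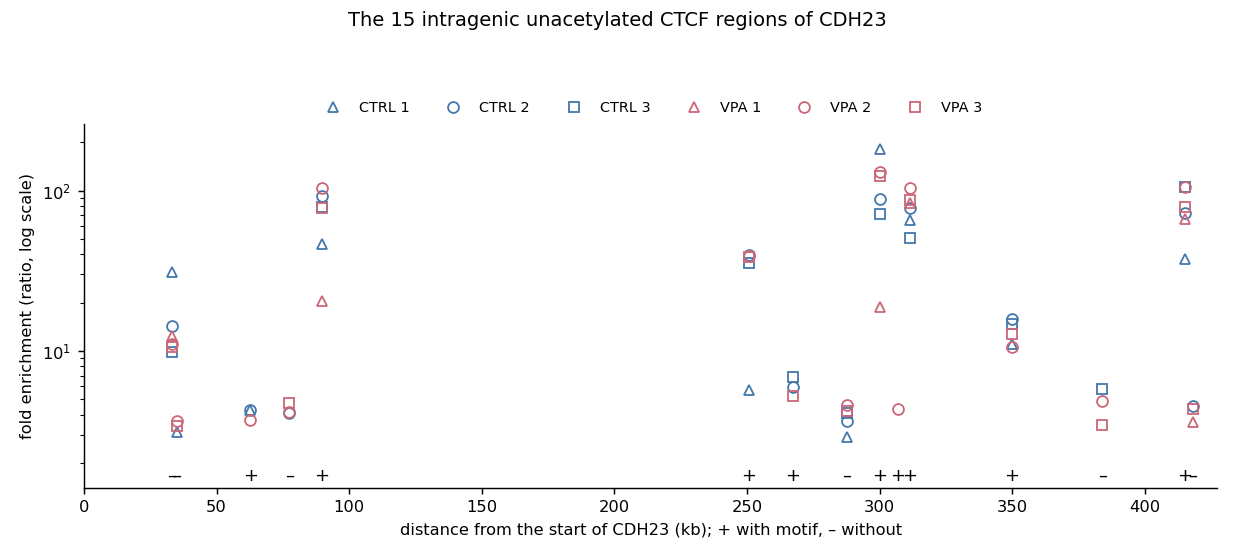
Fold enrichment (log scale, y axis) of the 15 intragenic unacetylated CTCF regions of CDH23 by distance from the gene start in kb (x axis). Each symbol is 1 list with a peak (blue CTRL, red VPA, shape by replicate), and signs at the bottom mark regions with (+) and without (–) the motif. The 4 motif-holding regions found in all 6 lists, at 89.7, 300.01, 311 and 415 kb, have the highest mean folds, 61.8 to 84.0.

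Gene lists, which hold autosomal genes only, were described by their counts. The values over all genes were 2.25 regions per 100 kb, a motif share of 56.3% and an acetylated share of intragenic regions of 24.8%. No region in the lists was found only in VPA, and 1, in the collagens, was found only in CTRL. Of 17 genes of CTCF, cohesin and its regulators, 8 held 11 intragenic unacetylated regions (1.09 per 100 kb). CTCFL, the germline paralogue of CTCF, had 2 in all 6 lists, with mean folds of 32.0 and 3.70, and the cohesin loader NIPBL, the cohesin regulator PDS5B and the meiotic subunit STAG3 had 2, 2 and 1, none of them in all 6 lists.

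The zinc-dependent histone deacetylases, the enzymes that valproic acid inhibits in part, held more such regions per 100 kb than all gene bodies did, and those of the acetyltransferases were seldom found in all 6 lists. Of 9 autosomal deacetylase genes, 8 held 21 regions (4.60 per 100 kb), and 12 of the 21 were in all 6 lists. HDAC4 had 6, with mean folds of 4.93 to 12.4, and HDAC11, HDAC5 and HDAC2 had 3 each. Of 9 acetyltransferase genes, 6 held 18 regions (2.54 per 100 kb), and 1 of the 18, in KAT2A, was in all 6 lists. The motif was held by 16.7% of the acetyltransferase regions and by 61.9% of the deacetylase regions. CREBBP had 6, with mean folds of 3.56 to 10.4, KAT6B had 5 and KAT6A 4. Lists of this size differ by few regions, and none of these differences was tested.

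Among structural and signalling genes, 34 of 42 collagen genes held 98 regions (2.55 per 100 kb). COL5A1 had 9, of which 6 were in all 6 lists, and the one 56.9 kb from the gene start had folds of 55.7, 78.8 and 86.9 in CTRL and 62.2, 118 and 96.6 in VPA. COL8A1 had 6, and COL16A1 and COL4A4 had 5 each. Potassium channel genes held 168 regions in 59 of 93 genes (2.86 per 100 kb), among them KCNAB2 and KCNIP1 with 9 each and KCNA2 with 8. Axon guidance genes held 92 in 43 of 67 genes (2.07 per 100 kb). NRP2, a semaphorin receptor, had 6, of which 5 were in all 6 lists, UNC5B and SLIT3 had 5 each, and SEMA6B had 4, all of them in 6 lists. In the clustered protocadherins, whose promoter choice is known to depend on CTCF, 7 of 53 genes were assigned 1 region each. The one assigned to PCDHGC5 lay 23.4 kb from the gene start, with folds of 41.1, 79.7 and 69.1 in CTRL and 38.2, 90.3 and 56.7 in VPA. Its summit was also in the bodies of PCDHGA6, PCDHGA8 and PCDHGC3, which were assigned 1 other region each. The bodies of these genes are nested, so more of them hold a region than were assigned one, and a density over them counts the same bases several times.

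Nuclear envelope genes and the genes discussed by the study closed the lists. Of 14 lamina and envelope genes, 9 held 20 regions (2.68 per 100 kb), and 44.4% of the intragenic CTCF regions of this list were acetylated. SYNE3, which links the nucleus to the cytoskeleton, had 6 with 4 in all 6 lists, SUN2 had 3, and LMNA and SUN1 had 2 each beside 4 acetylated ones. The genes discussed by the study were picked from these samples and are no independent set. SYNE1, the large nesprin of the outer nuclear membrane, had 2 intragenic unacetylated regions. The one at 85.0 kb from its start held the motif, with folds of 8.59, 69.2 and 51.9 in CTRL and 15.6, 63.0 and 77.8 in VPA. The one at 42.1 kb had no motif and was missing from both replicate 1 lists, with folds of 19.4 and 20.1 in CTRL and 10.5 and 22.3 in VPA. In both the treatments overlapped. CLDN1, a tight junction protein, and SP110 were assigned none, and P3H2, a collagen hydroxylase, was assigned 1 intragenic CTCF region, which was acetylated.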

How the data were processed

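CTCF and H3K27ac peak lists of HEK293T cells were analysed, 12 libraries in 4 groups of 3 replicates grouped by the sample labels, and the 6 input libraries were not analysed here. The authors aligned reads to hg38 with Bowtie2 and called peaks per library with MACS3 3.0.0a7 (version per the labels) at a q-value of 0.05. The deposited values were fold enrichment (a ratio), −log10 p-value and −log10 q-value, a score derived from the q-value, and the summit. Use of inputs and treatment of duplicates are not given in the sources used here. Peaks called per library move with depth, which is unknown, so a weak region absent from a list can be a missed call.

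Genes were the protein-coding genes of GENCODE 44 on the 22 autosomes, and genes on the sex chromosomes were left out. Regions, motif scans and exact tests used Python 3.11.15, numpy 2.4.6, pandas 2.3.3, scipy 1.17.1 and pysam 0.24.0, and plots matplotlib 3.10.9. A region's value in a list was that of its peak there, and its mean fold was the geometric mean over the lists with a peak. Treatments were compared by exact permutation over 6 lists, classes by exact sign flips over the lists, with Benjamini-Hochberg adjustment over 8 tests. Regions in all 6 lists were tested with limma 3.58.1 (R 4.3.3) on log2 fold enrichment with no pseudocount. Scripts were tested on simulated data. The matrix was learned from 21280 other regions in all 6 lists. No pair of lists held identical peaks.

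The members and gene lists were chosen with earlier results of these data known. Named were the 6 highest-ranked regions in all 6 lists, the 4 highest only in each treatment, the 8 genes with most regions, the genes discussed by the study, up to 4 genes per list and the regions closest to each limit. A few items that this rule names are not reported here. The regions printed within CDH23, COL5A1, PCDHGC5 and other genes were picked after their values were seen. Alternatives covered TSS definition, q-value, acetylation overlap, peak assignment, list length, motif definition, scaling, replicate block and each library left out.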

Additional observations from a re-analysis of the deposited data

How the results depend on the processing

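The difference in regions per list and the 3 class differences other than the motif share against acetylated regions kept their direction under every alternative that was run, except for regions per list without CTCF VPA replicate 1 (525.5). Leaving out each library in turn gave ranges of −2701.5 to 525.5 regions per list, −1.14 to −0.360 percentage points for the share of a list, −1.53 to 1.45 for the median fold and 1.49 to 8.42 percentage points for the motif share between treatments. Against intragenic acetylated regions these ranges were 0.101 to 2.68 percentage points for the motif share and −12.0 to −8.58 for the fold, and against intergenic unacetylated regions −2.63 to −2.04 and −2.97 to −2.44. With 5 CTCF lists the exact sign-flip permutation test cannot go below p = 0.0625, so those omissions say nothing of stability. Regions only in VPA ranged from 47 to 180, regions only in CTRL from 80 to 582, and limma called 0 regions in either direction each time. Over all CTCF regions the counts for these patterns ranged from 130 to 625 and from 228 to 1850. Equal list lengths gave a difference of −194.333 regions per list. They left 14 intragenic unacetylated regions with the VPA pattern and 23 with the CTRL pattern, with fewer peaks entered by construction.

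The treatment difference in median fold, 0.00802, turned negative with every transcript's TSS (−0.0240), a −log10 q-value of at least 3 (−0.00194), no H3K27ac overlap of the region (−0.0538) and peaks that cover the region summit (−0.00776), all small against the SDs. It was −2.23 with equal list lengths (exact permutation test, p = 0.5). The SDs of 2.67 and 2.61 are those of the full lists. The motif share against acetylated regions became −1.79 with every transcript's TSS, −1.26 with no H3K27ac overlap, −2.21 with the stricter score and −0.0283 within 50 bp of the summit. It was 1.29 with equal list lengths, 3.20 with the CTCF core consensus at 1 mismatch and 2.68 without H3K27ac VPA replicate 3, each with an exact sign-flip permutation p of 0.03125. The cause was not tested. The set held between 13188 (equal lengths) and 20921 regions (every transcript's TSS).

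Replicate numbers paired the libraries only in part. Deviations at 6514 regions correlated by 0.350, −0.0444 and 0.489 for numbers 1, 2 and 3 (across regions). CTRL replicates 1 and 3 correlated best with the VPA library of the same number, but CTRL replicate 2 correlated best with VPA replicate 3 (0.444). With a replicate block, the differences were unchanged at −1186.33 regions, −0.867 percentage points, 0.00802 and 5.57 percentage points, with exact sign-flip permutation p of 0.25, 0.25, 1 and 0.5, where 0.25 is the smallest possible, and limma called 0 regions. Peak lists show no fragments at regions without a call, so a missing peak is no measure of absence, and depth sets which weak regions were called.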
